A study of Mus musculus with 10 samples.

Results

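The NRF2 antioxidant response was followed in livers of mice with lung cancer through 10 genes, the transcription factor gene Nfe2l2, its inhibitor gene Keap1 and 8 target genes (Nqo1, Gclc, Gclm, Hmox1, Txnrd1, Srxn1, Gsr and G6pdx). The genes were chosen by name for their known place in the pathway, with earlier results of these data known. All 10 were among the 43629 genes of the deposited count table and among the 14143 genes with enough counts to be tested. The series compared livers of 5 non-cachectic (NCACS) and 5 cachectic (CACS) male KL mice by RNA-seq. KL mice carry Cre-dependent alleles, Lkb1 flox/flox among them, on a backcross to the FVB strain, and lung tumours were induced at 12 to 20 weeks of age by intranasal Ad5CMV-Cre, an adenovirus that expresses Cre from the CMV promoter. Both groups therefore carried the same alleles and received the same virus, and the comparison held no tumour-free liver. CACS was defined by a loss of more than 15% of peak body weight. The labelled weight change was -8 ± 4.64% in NCACS mice and -30.6 ± 1.82% in CACS mice (SD, n = 5 each).

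NRF2, the protein made from Nfe2l2, is a transcription factor that the adaptor KEAP1 binds and hands to a CUL3 ubiquitin ligase for degradation. Oxidants and electrophiles modify cysteines of KEAP1, NRF2 then escapes degradation, and with a small MAF partner it binds antioxidant response elements near genes for glutathione synthesis, thioredoxin reduction, NADPH supply and detoxification. The liver depends on these genes to handle drugs, bile acids and lipid peroxides. Because NRF2 is controlled mainly at the protein level, the mRNA of Nfe2l2 is a measure of the gene and not of NRF2 activity.

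None of the 10 genes differed between NCACS and CACS livers past the threshold. In edgeR's quasi-likelihood test, 0 of 10 had a Benjamini-Hochberg adjusted p under 0.05, against 3.8% of all 14143 genes tested, and DESeq2 and limma-voom also called 0 of 10, against 10% and 3.6% of all genes. Hmox1 was the 1 gene of 10 with an unadjusted p under 0.05, a mark that 21.6% of all genes reached. For each of the 10 genes the CPM (counts per 1e6 counts of the library, normalized by TMM) of the groups overlapped, whereas 7.07% of all genes had groups that did not overlap. The mean was lower in CACS livers for 8 genes and higher for 2. The median log2 fold change (CACS minus NCACS, negative where CACS was lower) was -0.14, against -0.01 over all genes tested. The differences were not larger than usual for these livers, since the median size of the log2 fold change was 0.16 for the 10 genes and 0.20 for all genes.

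**Figure D1:**
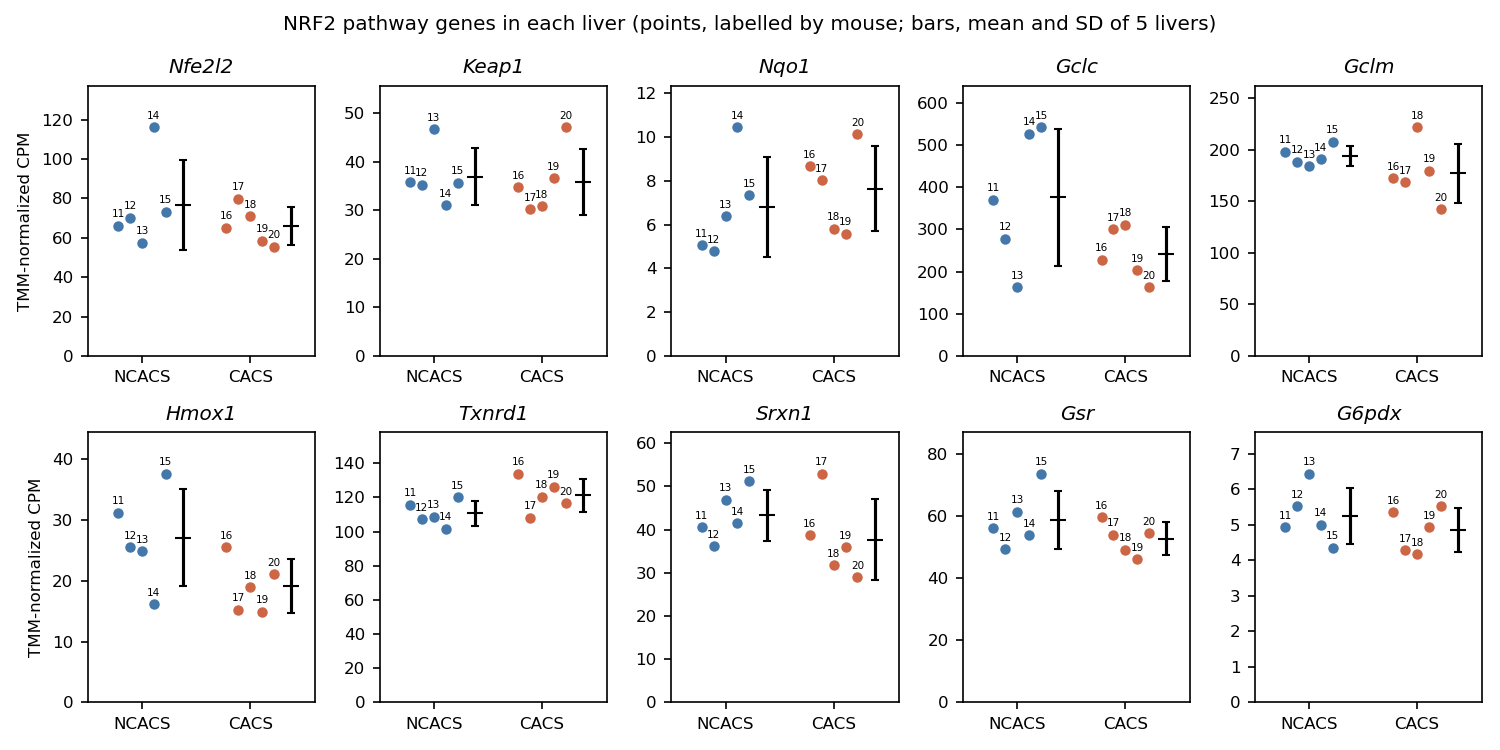
CPM of the 10 genes (y axes, from 0, TMM-normalized) in each of the 5 NCACS and 5 CACS livers (points, labelled by mouse number), with bars for the mean and SD of each group. The groups overlap for all 10 genes, and NCACS 14 and NCACS 15 hold the 2 highest Gclc values.

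The genes spanned a wide range of levels. Per length of exon (CPM per kilobase), Gclc had the highest mean in NCACS livers, 99.8 ± 43.1 (SD, n = 5), followed by Gclm at 30.8, and G6pdx had the lowest, 1.70. Between them, Gsr at 21.4, Nfe2l2 at 20.2, Txnrd1 at 15.6, Hmox1 at 15.5 and Srxn1 at 15.4 CPM per kilobase formed a run in which each neighbour overlapped the next across livers. Keap1 at 7.87 and Nqo1 at 4.38 CPM per kilobase also overlapped. In CACS livers the per-length order was the same except that Srxn1 (13.4) stood above Hmox1 (10.9), and each neighbour from Gsr down to Nqo1 overlapped the next. The reads behind these values ranged from 128 for G6pdx to 17553 for Gclc in a single liver.

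Nfe2l2 (ENSMUSG00000015839, chr2:75675513-75704641, minus strand, GRCm38) is a protein-coding gene. Its CPM was 66.1, 70.3, 57.5, 116 and 73.4 in NCACS livers 11 to 15 and 65.2, 79.8, 71.1, 58.6 and 55.5 in CACS livers 16 to 20. Only NCACS 14 lay above 80, and the other livers of both groups covered the same range. The log2 fold change was -0.22 (SE 0.178, adjusted p = 0.518), with a 95% interval from -0.60 to 0.17. Without NCACS 14 the value was -0.02. Keap1 (ENSMUSG00000003308, chr9:21229730-21239361, minus strand) had a mean CPM of 36.9 ± 5.80 in NCACS and 35.9 ± 6.81 in CACS livers (SD, n = 5 each). Its log2 fold change of -0.04 was the smallest in size of the 10 genes (SE 0.141, adjusted p = 0.902), with an interval from -0.35 to 0.27. It was -0.16 without CACS 20 and changed sign without NCACS 13 (0.06). Exons of Keap1 overlap those of Gm16754 on the opposite strand. Whether the authors' counting used strand is not given in the sources used here, so reads of the overlap cannot be assigned to Keap1 with certainty.

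NRF2 recognises short elements with the core letters TGACNNNGC. A search on both strands for TGACNNNGC and for the variant TGAGNNNGC, in windows from 250 bases before to 50 bases after each RefSeq start (GRCm38.p6), covered 7 of the 10 genes. Gclc, Hmox1 and Gsr were not among the genes with a window. A match was found in 5 of the 7 genes (Nfe2l2, Gclm, Txnrd1, Srxn1 and G6pdx) and none in the windows of Keap1 and Nqo1. Counted by window, 5 of the 9 windows of these genes held at least 1 match, against 27.8% of all 32851 windows. Srxn1 stood out with 3 matches, where 4.68% of all windows held at least 2. One of the matches of Srxn1 overlaps the letters TGAGTCA, which also bind AP-1 factors. The stretches below are shown because they hold the matches upstream of the start, with the matching letters of either strand in capitals. They are written 5′ to 3′ on the strand of the gene, at chr2:75704854-75704913 (minus), chr3:122245398-122245457 (plus), chr10:82859089-82859148 (plus, the second of the RefSeq starts of Txnrd1), chr2:152105274-152105523 (plus) and chrX:74428903-74428962 (minus) in the order given.
Nfe2l2: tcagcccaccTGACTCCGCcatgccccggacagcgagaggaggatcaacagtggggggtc
Gclm: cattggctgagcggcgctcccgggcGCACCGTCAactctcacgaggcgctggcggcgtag
Txnrd1: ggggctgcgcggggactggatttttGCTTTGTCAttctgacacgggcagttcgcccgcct
Srxn1: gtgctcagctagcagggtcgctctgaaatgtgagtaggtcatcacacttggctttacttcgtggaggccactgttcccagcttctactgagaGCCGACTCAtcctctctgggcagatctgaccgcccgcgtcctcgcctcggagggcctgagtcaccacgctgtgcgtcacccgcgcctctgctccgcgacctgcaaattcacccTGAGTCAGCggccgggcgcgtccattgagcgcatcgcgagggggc
G6pdx: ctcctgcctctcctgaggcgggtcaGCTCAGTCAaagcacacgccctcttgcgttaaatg
The match of Nfe2l2 lies at -240 to -232 from the start, that of Gclm at -134 to -126, that of Txnrd1 at -92 to -84 and that of G6pdx at -57 to -49, while Srxn1 has matches at -158 to -150 and -45 to -37. A match in letters does not show that NRF2 bound there in these livers.

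Nqo1 (ENSMUSG00000003849, chr8:107388225-107403206, minus strand) encodes the quinone reductase that is often used as a readout of NRF2. It was a low gene in these livers, at 5.07, 4.78, 6.37, 10.4 and 7.35 CPM in NCACS and 8.67, 8.03, 5.81, 5.58 and 10.1 CPM in CACS livers. The highest values of both groups were alike. CACS minus NCACS gave a log2 fold change of 0.17 (SE 0.237, adjusted p = 0.730), with a 95% interval from -0.35 to 0.69. It was 0.38 without NCACS 14 and 0.05 without CACS 20.

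The genes of glutathione synthesis differed in how they varied. Gclc and Gclm encode the catalytic and the modifier subunit of glutamate-cysteine ligase, which makes the first and rate-limiting step. Gclc (ENSMUSG00000032350, chr9:77754535-77794485, plus strand) was at 370, 278, 162, 526 and 542 CPM in NCACS livers and at 228, 301, 311, 203 and 163 CPM in CACS livers. NCACS 11, 14 and 15 lay above every CACS liver, and NCACS 13 lay below all of them. The log2 fold change of -0.64 was the largest of the 10 genes (SE 0.303, unadjusted p = 0.0568, adjusted p = 0.247), with a 95% interval from -1.30 to 0.02. Without NCACS 15 it was -0.47, and without NCACS 13 it was -0.83 (adjusted p = 0.0925).

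Gclm (ENSMUSG00000028124, chr3:122245557-122270732, plus strand) varied far less, at 198, 189, 184, 191 and 208 CPM in NCACS livers and 173, 169, 222, 180 and 142 CPM in CACS livers. CACS 18 was the highest of all 10 livers, and the other CACS livers lay below every NCACS liver. Gclm had a log2 fold change of -0.13 (SE 0.114, adjusted p = 0.545, interval from -0.38 to 0.12), and it was -0.22 without CACS 18 and -0.06 without CACS 20. Exons of Gclm overlap those of Gm17494 on the opposite strand, where the uncertainty given for Keap1 applies. They also overlap those of Gm6061 on the same strand, where reads cannot be told apart by strand whatever the setting. The ratio of Gclc to Gclm per length was 3.12, 2.46, 1.48, 4.61 and 4.36 in NCACS livers and 2.20, 2.98, 2.34, 1.89 and 1.92 in CACS livers. The ratio thus spanned a wider range among NCACS livers, at both ends, than among CACS livers.

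Gsr (ENSMUSG00000031584, chr8:33652523-33698163, plus strand) encodes glutathione reductase, which returns oxidised glutathione to its reduced form. Its mean CPM was 58.8 ± 9.35 in NCACS and 52.7 ± 5.25 in CACS livers (SD, n = 5 each), with a log2 fold change of -0.16 (SE 0.116, adjusted p = 0.461, interval from -0.41 to 0.10). NCACS 15, at 73.7 CPM, was the highest liver, and without it the log2 fold change was -0.06.

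Hmox1 (ENSMUSG00000005413, chr8:75093621-75100589, plus strand) encodes heme oxygenase 1, which opens the heme ring and is also made by macrophages that clear red blood cells. Its CPM was 31.2, 25.6, 24.9, 16.1 and 37.6 in NCACS livers and 25.6, 15.2, 18.9, 14.96 and 21.2 in CACS livers. All NCACS livers but NCACS 14 lay above all CACS livers but CACS 16. The log2 fold change was -0.50 (SE 0.215, unadjusted p = 0.0392, adjusted p = 0.204), with an interval from -0.97 to -0.03. It was -0.35 without NCACS 15 and -0.64 without NCACS 14 (adjusted p = 0.0893).

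Markers of Kupffer cells, the macrophages of the liver, were also lower in CACS livers. All 7 listed markers had a lower mean, 4 of 7 at an unadjusted p under 0.05 in edgeR (against 10.3% of all genes lower). DESeq2 called 3 of the 7, where it called 5.15% of all genes lower. Cd5l, a scavenger protein of these cells, fell past the threshold (log2 fold change -0.90, edgeR adjusted p = 0.0374). The markers did not fall evenly. Clec4f and Csf1r, named after their values were seen, had log2 fold changes of -0.11 and -0.24 (edgeR adjusted p = 0.782 and 0.634). The summed CPM of the 7 markers ranged from 170 to 285 in NCACS livers (median 257) and from 101 to 204 in CACS livers (median 171). NCACS 14 had the lowest Hmox1 of its group and the lowest Marco (6.26 CPM, against 22.5 to 41.8 in the other NCACS livers). Its Adgre1 (4.85 CPM, against 9.76 to 11.1) and Cd5l (54.3 CPM) were also the lowest of the group. Marco and Adgre1 were chosen for mention after their values were seen. In the other livers these markers differed in how they went with Hmox1. NCACS 15, with the highest Hmox1, had 60.6 CPM of Cd5l, against 74.2 to 98.9 in NCACS 11 to 13. The same liver had the highest Adgre1 of all livers (11.1 CPM) and 36.7 CPM of Marco, below only NCACS 13. CACS 16, with the highest Hmox1 of its group, had the highest Marco (13.8 CPM) and Adgre1 (7.20 CPM) of that group. CACS 19, with the lowest Hmox1 of all livers, had the highest Cd5l of its group (51.6 CPM). Its Marco (12.2 CPM) and Adgre1 (5.32 CPM) lay inside the range of the group. In bulk tissue, fewer cells of a type and less RNA per cell cannot be told apart, and the part of Kupffer cells in the Hmox1 values was not tested. The hepatocyte identity of the samples was plain from albumin, which took 4.49 to 8.51% of counts in NCACS and 8.76 to 10.5% in CACS livers. Hnf4a, a hepatocyte transcription factor, rose past the threshold (log2 fold change 0.50, adjusted p = 0.0435), and the part of the albumin share in the results on the 10 genes was not tested. With 1 liver left out, Cd5l kept its call only without NCACS 14 or CACS 19 (adjusted p up to 0.0862 without the others) and Hnf4a only without CACS 18 (up to 0.0974). Hnf4a also lost its call with no filter on low counts (adjusted p = 0.0763).

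Txnrd1 (ENSMUSG00000020250, chr10:82833951-82897712, plus strand) encodes cytosolic thioredoxin reductase. Together with Nqo1 it was the other gene with a higher mean in CACS livers. Its CPM was 116, 107, 109, 102 and 120 in NCACS and 134, 108, 121, 126 and 117 in CACS livers, a narrow spread in both groups. CACS 16, 18 and 19 exceeded all NCACS livers. The log2 fold change of 0.13 had the smallest SE of the 10 genes (0.0864, adjusted p = 0.409), with an interval from -0.06 to 0.32. Srxn1 (ENSMUSG00000032802, chr2:152105516-152111376, plus strand) encodes sulfiredoxin, which restores over-oxidised peroxiredoxins. Its CPM was 40.5, 36.1, 46.9, 41.6 and 51.3 in NCACS and 38.7, 53.0, 31.8, 35.9 and 29.1 in CACS livers, so the highest liver and the lowest liver were both CACS. For Srxn1 the log2 fold change was -0.20 (SE 0.158, adjusted p = 0.498, interval from -0.55 to 0.15), and it was -0.35 without CACS 17 and -0.12 without CACS 20. Srxn1, with the most matches to the NRF2 letters above, thus showed no difference past the spread between livers.

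G6pdx (ENSMUSG00000031400, chrX:74409483-74429194, minus strand) encodes glucose-6-phosphate dehydrogenase, the entry to the pentose phosphate pathway and a main source of NADPH. It had the lowest level of the 10 genes, a mean CPM of 5.25 ± 0.783 for NCACS against 4.85 ± 0.611 for CACS (SD, n = 5 each), with a log2 fold change of -0.11 (SE 0.145, adjusted p = 0.703, interval from -0.43 to 0.20). It was -0.03 without NCACS 13 and -0.17 without NCACS 15. Counting error is not negligible for this gene, since a mean of 177 reads per liver carries a counting CV of 7.52%, against a CV between livers of 14.9% in NCACS and 12.6% in CACS mice. Its exons overlap those of Ikbkg on the opposite strand. An exact two-sided permutation test of the mean log2 CPM over all assignments of the 10 livers to groups of 5 gave its smallest p for Hmox1 (0.0794) and Txnrd1 (0.0873). The smallest p this test can give is 0.00794, which for 1 gene alone becomes 0.0794 after adjustment over the 10 tests. The test could therefore not have passed 1 gene on its own, and it is not used as support for the result above.

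**Figure D2:**
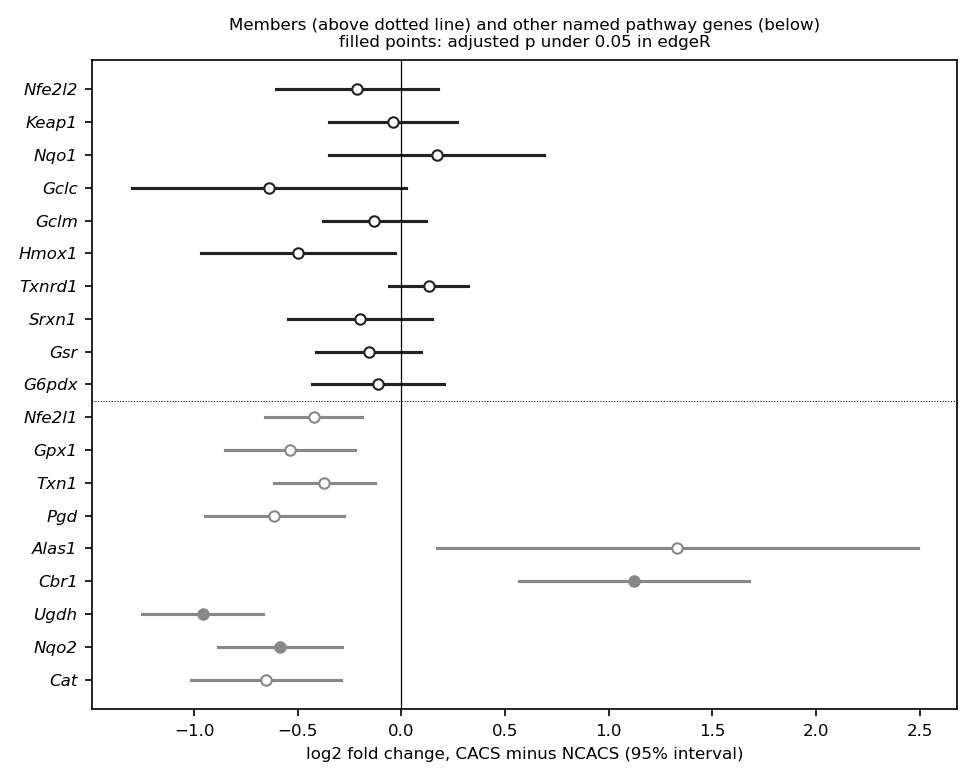
Log2 fold change (x axis, CACS minus NCACS) with its 95% interval from edgeR for the 10 genes (above the dotted line) and for 9 other genes of the pathway (below), with filled points for an adjusted p under 0.05. Of the 10 genes, only the interval of Hmox1 (-0.97 to -0.03) lies fully on one side of 0, and none is filled.

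The livers of a group were also compared with each other, to see whether target genes followed Nfe2l2. After subtraction of the group means, the slope of log2 CPM on log2 CPM of Nfe2l2 was positive for 4 target genes (Gclc, Nqo1, Srxn1 and Gclm) and negative for the other 4. Gclc had the steepest slope, 1.44, with an exact permutation p of 0.0310 over all pairings within groups and an adjusted p of 0.248 over 8 slopes, and Hmox1 had a slope of -0.72 (exact permutation p = 0.160, adjusted p = 0.337). None of the 8 slopes passed. NCACS 14, which lay 0.64 above its group mean for Nfe2l2 on the log2 scale, weighed heavily in these slopes. Without it the slope of Gclc was 2.44 and passed (exact permutation, adjusted p = 0.0417), the slope of Hmox1 was 0.04 and that of Nqo1 turned from 0.64 to -0.21.

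**Figure D3:**
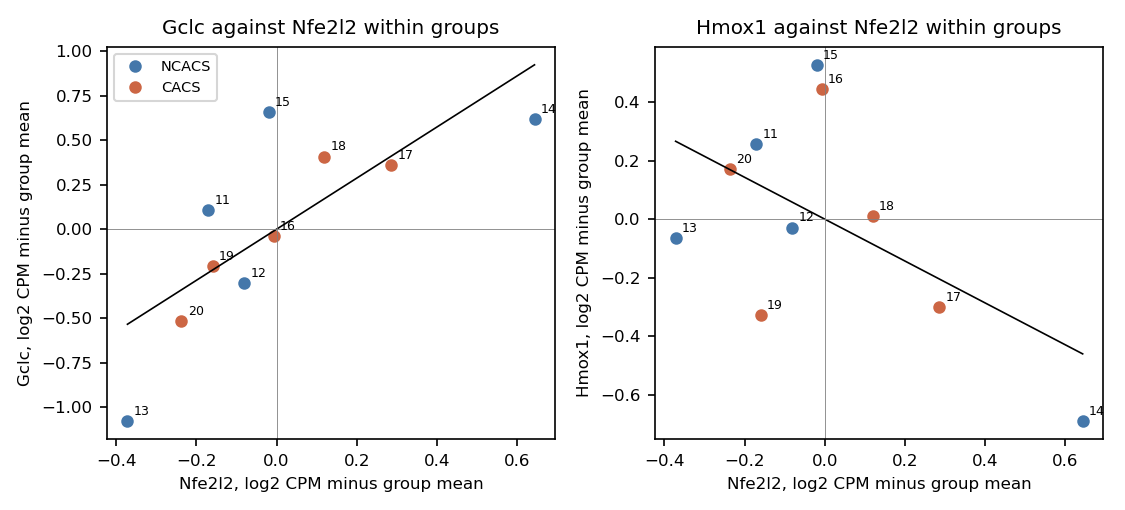
Log2 CPM of Gclc (left) and Hmox1 (right) against Nfe2l2 in each liver, all as differences from the mean of the liver's own group, with points labelled by mouse number and coloured by group, and a line for the slope over all 10 livers. NCACS 14 lies 0.64 above its group on the Nfe2l2 axis, farther than the other livers.

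NCACS 15 stood out in another way. It was the highest liver of its group for 6 of the 8 target genes (Gclc, Gclm, Hmox1, Txnrd1, Srxn1 and Gsr), while its Nfe2l2 was 0.02 below the group mean on the log2 scale. For G6pdx it was the lowest liver of its group, 0.25 below the mean. This mouse had the largest labelled weight loss of the NCACS group, a change of -14%, and the lowest albumin share, 4.49%. NCACS 13, with a change of -11% and an albumin share of 5.09%, had the lowest Gclc and the highest Keap1 of the group. With 5 livers a group, no relation to weight was tested.

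**Figure D4:**
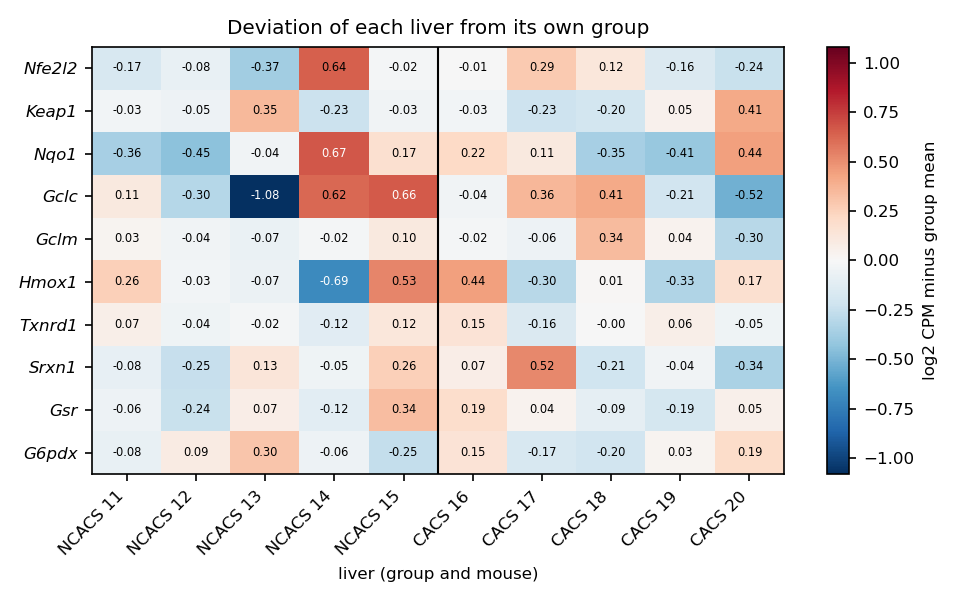
Log2 CPM of each of the 10 genes (rows) in each liver (columns) as the difference from the mean of the liver's own group, red above and blue below, with values printed in the cells. The largest deviation is that of Gclc in NCACS 13, at -1.08, and the 10 genes do not share 1 pattern across livers.

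The wider pathway was examined through 7 lists of other genes, 74 in all, of which 71 were tested. These lists were also chosen with earlier results of these data known. Of the 71 genes, 3 passed the threshold in edgeR, 1 higher and 2 lower in CACS livers. That is 4.23% against 3.8% of all genes. DESeq2 called 16 of the 71, where it called 10% of all genes. An unadjusted p under 0.05 was reached by 19 of 71, or 26.8% against 21.6% of all genes, and the median log2 fold change was -0.04. The groups did not overlap for 8 of the 71, or 11.3% against 7.07% of all genes. The 3 that passed in edgeR were all in the detoxification list, in which 16 of 17 genes were tested. Ugdh, which makes UDP-glucuronic acid for glucuronidation, fell to 0.514 times its NCACS level (log2 fold change -0.96, edgeR adjusted p = 0.00745), with 145 to 214 CPM in NCACS and 82.7 to 115 CPM in CACS livers. Nqo2, a quinone reductase related to Nqo1, fell (log2 fold change -0.59, adjusted p = 0.0406), from between 83.5 and 128 CPM to between 58.2 and 81.2 CPM. Cbr1, a carbonyl reductase, rose (log2 fold change 1.12, adjusted p = 0.0361), from between 37.9 and 65.3 CPM to between 67.2 and 193 CPM. The groups did not overlap for any of these 3 genes. Ugdh passed with each liver left out in turn, whereas Nqo2 and Cbr1 passed only without CACS 17 and lost the call without any 1 of the other 9 livers (adjusted p up to 0.0939 and 0.0746). Nqo2 also lost its call with library totals in place of TMM scaling (adjusted p = 0.0628).

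The NADPH supply list, which also holds pentose phosphate enzymes that make no NADPH themselves, had the lowest median of the 7 lists, -0.27. None of the 12 passed in edgeR, but 6 of 12 were lower at an unadjusted p under 0.05, against 10.3% of all genes, and none was higher. DESeq2 called those 6, where it called 5.15% of all genes lower. Pgd, the second NADPH-producing enzyme of the pentose phosphate pathway, had the smallest p, with 32.0 to 59.5 CPM in NCACS and 24.8 to 31.1 CPM in CACS livers (log2 fold change -0.61, edgeR adjusted p = 0.0504). The other 5, named after their values were seen, were Me1 (-0.85, malic enzyme), H6pd (-0.47), Rpe (-0.43), Idh1 (-0.38, cytosolic isocitrate dehydrogenase) and Taldo1 (-0.35, transaldolase), all as log2 fold changes. Of these, Rpe and Taldo1 encode enzymes that make no NADPH. The edgeR adjusted p of the 5 genes ranged from 0.0577 (Idh1) to 0.121 (Me1). Idh2 (0.20) and Nnt (0.11), which supply NADPH in mitochondria and were also named after their values were seen, had positive log2 fold changes that did not pass (adjusted p = 0.606 and 0.684). G6pdx, with its log2 fold change of -0.11 and an interval that spans 0, was not among the genes below an unadjusted p of 0.05.

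In the other 5 lists no gene passed in edgeR, although DESeq2 called 6 of their genes. By list, DESeq2 called 2 of 10 tested partner and turnover genes, 2 of 10 glutathione genes and 1 of 12 thioredoxin and peroxiredoxin genes. It called 0 of 7 heme and ferritin genes and 1 of 4 superoxide and hydrogen peroxide enzymes. The share of all genes called by DESeq2 was 10%. In the NRF2 partner and turnover list, 8 of 10 genes had a lower mean, with a median log2 fold change of -0.08. Of all genes tested, 49.4% had a positive log2 fold change. Mafg and Bach1, named after their values were seen, were among the 8, with log2 fold changes of -0.0003 and -0.001. Nfe2l1, the relative of NRF2 that drives proteasome genes, had the smallest p of the list (log2 fold change -0.42, edgeR adjusted p = 0.0505). Nfe2l1 passed in 5 of the 7 alternatives that kept all livers (adjusted p from 0.00551 in DESeq2 to 0.0812 with no filter). With 1 liver left out, Nfe2l1 passed in 0 of the 10 edgeR fits (adjusted p from 0.0531 to 0.106). Cul3, the ubiquitin ligase scaffold, and Sqstm1, which can draw KEAP1 away from NRF2, were named after their values were seen and had log2 fold changes of -0.08 and -0.21 (adjusted p = 0.731 and 0.421). In the glutathione list, 10 of 12 genes were tested, and Gpx1, the abundant glutathione peroxidase, ranged from 1380 to 1787 CPM in NCACS and from 787 to 1282 CPM in CACS livers without overlap (log2 fold change -0.54, adjusted p = 0.0601). Txn1, the thioredoxin that Txnrd1 reduces, had 178 to 246 CPM in NCACS and 149 to 176 CPM in CACS livers, again without overlap (log2 fold change -0.37, adjusted p = 0.0843), and 8 of the 12 genes of its list had a lower mean. Among 4 superoxide and hydrogen peroxide enzymes, Cat, catalase, had the smallest p (log2 fold change -0.65, adjusted p = 0.0519). Cat passed in 4 of the 7 alternatives that kept all livers (adjusted p from 0.00106 in DESeq2 to 0.0748 with no filter). With 1 liver left out, Cat passed in edgeR only without NCACS 13 (adjusted p = 0.0342, up to 0.114 in the other fits). In the heme and ferritin list of 7 genes, Alas1, the rate-limiting enzyme of heme synthesis, had the smallest p (log2 fold change 1.33, adjusted p = 0.172) and the widest spread, from 66.8 to 668 CPM among NCACS livers and from 606 to 1756 CPM among CACS livers.

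**Figure D5:**
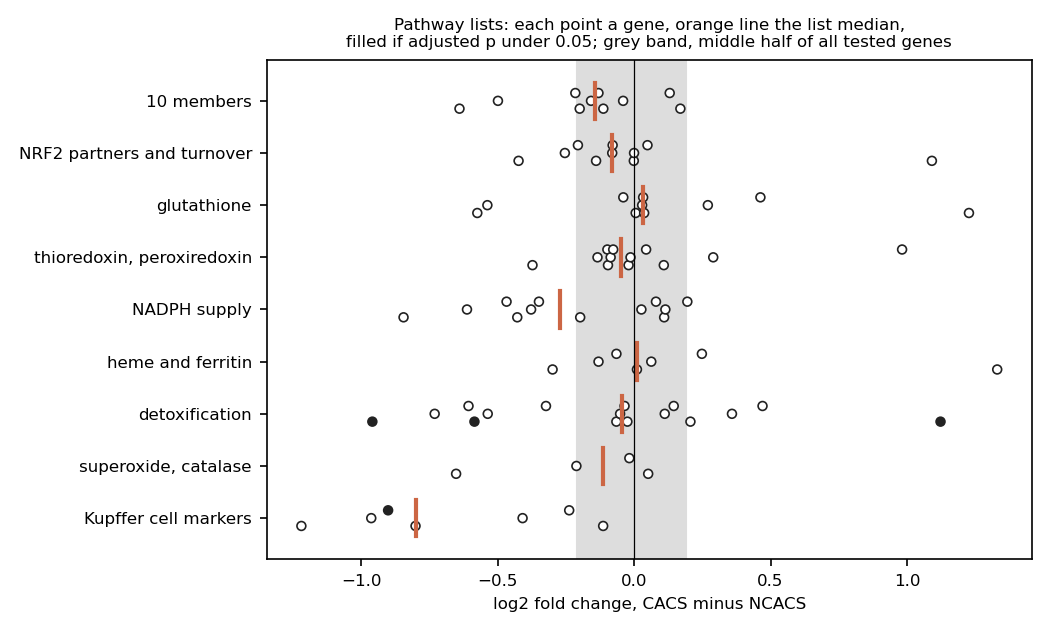
Log2 fold change (x axis, CACS minus NCACS) of each tested gene (points) in the 10 genes, the 7 lists of other pathway genes and the Kupffer cell markers (rows), with the median of each row as an orange line, filled points for an edgeR adjusted p under 0.05, and the middle 50% of all tested genes in grey. The medians of the 10 genes (-0.14) and of the pathway lists other than NADPH supply (-0.27) lie inside the grey band, and that of the Kupffer markers (-0.80) lies far to its left.

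The intervals given above show which differences remain possible with 5 livers a group, and a p that misses the threshold does not show that the groups are alike.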

How the data were processed

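Liver RNA of 5 NCACS and 5 CACS mice was analysed. Libraries were poly(A)-selected and stranded. The authors mapped the reads, sequenced from one end, to GRCm38 and deposited raw counts for each Ensembl gene, with no normalization. The submitters' processing notes name STAR 2.4.1d and HTSeq 0.6.1. The annotation release and the strand setting are not given in the sources used here. The library totals lay between 31945328 and 38306888 counts (NCACS) and between 31459179 and 40746178 counts (CACS). The counting CV of the 10 genes ranged from 0.968% (Gclc) to 7.52% (G6pdx). Livers of a group differed by far more than sampling noise (smallest chi-square per degree of freedom, 50.1). The labels number the mice but give no batch, and 0 columns were left unused. The batch correction of the study was not repeated.

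Groups came from the sample labels. A further allele that all mice of both groups share is not reported here. Symbols, coordinates and exon lengths came from GENCODE M21 on GRCm38, and promoter windows from RefSeq (GRCm38.p6). After filterByExpr and TMM scaling, the counts of all genes were tested with edgeR 4.0.16 (quasi-likelihood, Benjamini-Hochberg, threshold 0.05) in R 4.3.3, which takes the place of the DESeq2 test of the study. DESeq2 1.42.0, limma 3.58.1 (voom), other scaling factors, other filters and leaving out each liver were alternatives. Log2 CPM used a prior count of 2. The scripts were tested on simulated data. The p-values set a difference or slope against the spread between these mice.

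The 10 genes and all lists (7 of pathway genes, 7 of cell type markers) were chosen with earlier results of these data known. Genes named were the 10, list members past the threshold, the gene with the smallest p of a pathway list without one, and those said to be chosen after their values were seen.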

Additional observations from a re-analysis of the deposited data

How the results depend on the processing

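None of the 10 NRF2 genes passed under DESeq2, limma-voom, RLE or upper-quartile factors, library totals only, no filter, a filter of at least 10 counts in every liver, or any of the 10 fits without 1 liver (0 to 0 called). The exact permutation test also called 0 in each case (0 to 0), which says nothing about stability because it cannot pass 1 gene alone. Their directions held in the 7 alternatives that kept all livers. Of all genes, 538 passed in edgeR, 1386 in DESeq2, and 178 (without NCACS 11) to 519 (without CACS 17) with 1 liver left out. Of the 71 other pathway genes, 3 passed in edgeR, 16 in DESeq2, 5 in limma-voom, 5 with RLE factors and 6 with at least 10 counts in every liver, and 1 to 4 with 1 liver left out. Over all genes, the share that passed was 3.8% in edgeR, 10% in DESeq2 and 3.6% in limma-voom. The cause of the differing counts was not tested. The direction of Keap1 changed without NCACS 13, CACS 17 or CACS 18 (log2 fold change -0.16 to 0.058 over the 10 fits, mean difference of log2 CPM -0.15 to 0.042). The count of slopes on Nfe2l2 that passed went from 0 to 1 without NCACS 14 (0 to 1 over the 10). Slopes that changed sign were those of Nqo1 (-0.21 to 0.89), Hmox1 (-0.98 to 0.039) and Gsr (-0.14 to 0.12) without NCACS 14, and that of Srxn1 (-0.036 to 0.81) without CACS 17. No scaling moved the median of all genes by over 0.1 on the log2 scale. No paired analysis was possible because the mice carry numbers of their own and no number occurs in both groups. Depth limits G6pdx most, with at least 128 reads per liver.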

Other observations

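Among the other genes of the lists, chosen after their values were seen, Maff, a small MAF partner of NRF2, had 3.79 to 8.57 CPM in NCACS and 6.38 to 21.7 CPM in CACS livers (log2 fold change 1.09, edgeR adjusted p = 0.109). Txnip, which binds and inhibits thioredoxin, had 28.5 to 54.4 CPM in NCACS and 43.3 to 169 CPM in CACS livers (log2 fold change 0.98, adjusted p = 0.156). Neither passed the threshold in edgeR, while Maff passed in DESeq2 (adjusted p = 0.0269) and Txnip did not (0.0609). Maff was the gene of the NRF2 partners with the largest log2 fold change.

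The markers of other liver cell types gave a mixed picture. Of 6 hepatocyte markers 5 had a higher mean in CACS livers, as had all 5 endothelial markers, none of which passed. All 4 tested leukocyte markers had a lower mean at an unadjusted p under 0.05 (edgeR), against 10.3% of all genes lower. None passed after adjustment in edgeR. DESeq2 called 2 of the 4, where it called 5.15% of all genes lower. The summed CPM of all 5 listed leukocyte markers, the untested one included, ranged from 9.35 to 28.2 in NCACS and from 5.69 to 13.6 in CACS livers. Reads were few for some of the tested leukocyte markers, down to 5 in a single liver. Of 5 stellate, 4 cholangiocyte and 3 erythroid markers none passed, with median log2 fold changes of 0.06, -0.57 and 0.15.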
